A study of Homo sapiens with 4 samples.

Results

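The 50 genes described here encode collagens, laminins, other glycoproteins and proteoglycans of the extracellular matrix, and the lysyl oxidases that crosslink them. They were taken from a list of names, matched to the Ensembl identifiers of the deposited tables, and placed in 5 classes: 6 fibrillar collagens, 16 basement membrane genes, 11 other collagens, 12 glycoproteins and proteoglycans, and 5 lysyl oxidases. Each name matched 1 identifier among the 20286 genes of the series. A mean of at least 1 CPM, the count of a gene scaled to the size of its library, was reached over the 4 libraries by 36 of the 50. These were 3 fibrillar collagens, 14 basement membrane genes, 8 other collagens, 6 glycoproteins and proteoglycans, and all 5 lysyl oxidases.

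RNA was measured by sequencing in HLE, an established line of human hepatocellular carcinoma cells. The vector group was 2 cultures of a stable line labelled as Vector, and the CYR61 group was 2 cultures of a line with stable expression of CYR61, a secreted CCN-family protein that binds integrins and is now named CCN1. Both groups grew in the same serum-supplemented medium with no further treatment, and each line was used as its total population, per the labels. The p-values below therefore measure the spread between cultures of a stable line, not between separately made lines.

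The comparison asks how matrix genes differed between cells with added CYR61 and cells with the vector, and whether fibrillar collagens differed from basement membrane genes. Fibrillar collagens assemble into the cable-like fibres of connective tissue, which in fibrotic liver come mainly from stellate cells and fibroblasts. Basement membranes are thin sheets under epithelia, built from networks of laminin and type IV collagen that are joined by nidogen, perlecan and agrin. Cells hold on to both kinds of matrix through integrins and related receptors, and lysyl oxidases harden collagen and elastin by crosslinking.

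The libraries held 16186988 to 21588822 estimated counts, and 14573 to 15068 genes had a count in each. CCN1, the check of the labels, stood at 221.5 and 218.3 CPM in vector 1 and 2 and at 8090.9 and 8619.6 CPM in CYR61 1 and 2. This was a log2 fold change of 5.25 with an SE of 0.126 (edgeR adjusted p = 1.33e-08). Among 12 hepatocyte markers, ALB, APOB, APOC3 and TTR had 0 counts in the 4 libraries, and the 12 summed to 19.9 and 20.8 CPM in the vector libraries and 41.5 and 37.2 CPM in the CYR61 libraries. FGA and FGB, fibrinogen chains, were called higher among them. Endothelial markers summed to 2.04 to 2.71 CPM and leukocyte markers to 2.37 to 3.4 CPM, with KDR and CD3E at 0. KRT8 and KRT18, keratins of simple epithelia, were abundant and made up nearly all of the epithelial marker sum of 3240 to 4660 CPM. The other epithelial markers were scarce: EPCAM at 0.319 to 1.36 CPM, CDH1 at 1.04 to 2.61 CPM and KRT19 at 0 to 0.0906 CPM.

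Of the listed genes, the HLE cells expressed mainly basement membrane, fibrillin and fibulin genes, and very little of the common fibril-forming collagens. COL1A2, COL3A1 and COL5A2, which encode chains of the type I, III and V fibrils, all lay below 1 CPM. Per kilobase of transcript, the mean level over the 4 libraries was highest for AGRN (133 CPM per kb), FBLN1 (120), LAMA5 (91.1), EFEMP1 (87.4), FBN2 (87.2) and COL4A2 (82.3). Among fibrillar collagens it was 47.5 CPM per kb for COL5A1, 3.75 for COL1A1 and 0.00209 for COL1A2. COL1A1 and COL1A2 encode the chains of type I collagen, so the transcript of the partner chain was nearly absent.

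**Figure D1:**
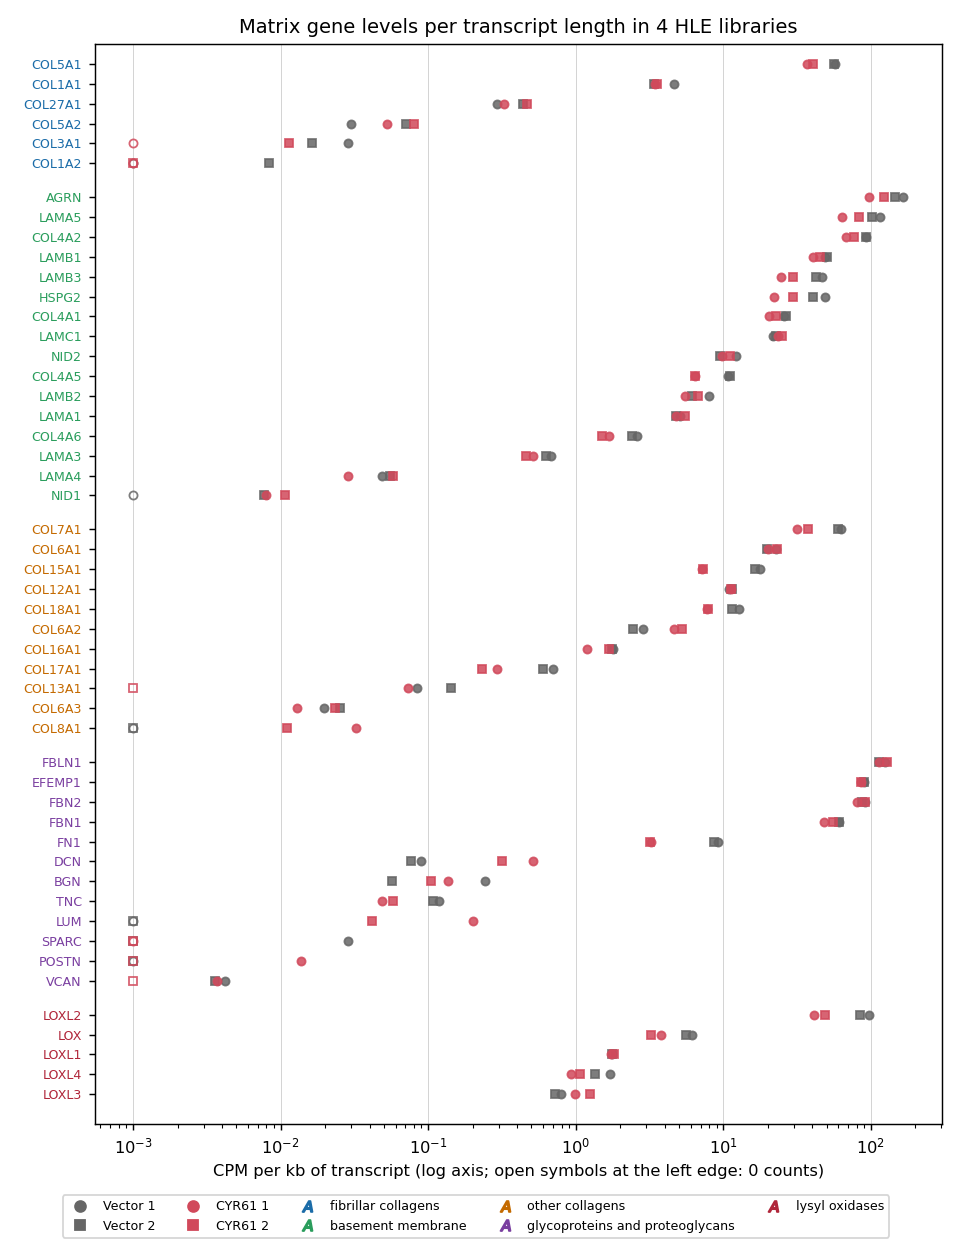
Level of each of the 50 matrix genes in CPM per kilobase of its longest protein-coding transcript (log axis), with 1 symbol per library, grey for vector and red for CYR61. Open symbols at the left edge are 0 counts. AGRN, FBLN1, LAMA5, EFEMP1, FBN2 and COL4A2 stand at the right, and COL1A2, COL3A1, NID1, POSTN, SPARC and VCAN near the left edge.

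Below the 1 CPM minimum lay 14 genes, with at most 18 counts in any library. They were COL1A2, COL3A1, COL5A2, LAMA4, NID1, COL6A3, COL8A1, COL13A1, LUM, TNC, BGN, SPARC, POSTN and VCAN. The nearest below the minimum were TNC (mean 0.632 CPM), COL5A2 (0.412) and BGN (0.324), and the nearest above it were DCN (1.78), COL17A1 (2.59) and COL27A1 (2.97). Of the 14, only TNC and COL5A2 had enough counts to be tested, and 0 were called. The other 12 had too few counts for a test.

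Of the 36 genes of at least 1 CPM, 13 fell and 2 rose in the CYR61 cultures at an edgeR adjusted p below 0.05, and 21 did not pass. Over all tested genes of at least 1 CPM, 4.73% were called lower and 1.9% higher. The members and the synthesis and receptor lists below were chosen with earlier results of these data known, so these shares are a description. DESeq2 called 12 of the 36 lower and 2 higher, beside 4.9% and 2.96% of the same background. The median log2 fold change was -0.30 over the 36 genes and -0.00 over the 12031 tested genes of at least 1 CPM. The genes that fell were COL5A1, HSPG2, COL4A5, LAMB3, COL4A6, LAMA5, COL17A1, COL15A1, COL7A1, COL18A1, FN1, LOXL2 and LOX, and those that rose were DCN and COL6A2. DCN reached the 1 CPM minimum only through the CYR61 group, so its place in the count of higher genes depends on its change. In 26 of the 36 genes the libraries of the groups did not overlap, 22 lower and 4 higher in CYR61. Over all tested genes of at least 1 CPM, groups without overlap made up 27.6% (lower) and 24.5% (higher). Without vector 1, the number called lower was 7. In bulk RNA, fewer cells that express a gene and less RNA per cell cannot be told apart.

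All 50 genes together summed to 9287.0 and 8628.7 CPM in vector 1 and 2. In CYR61 1 and 2 they summed to 6261.6 and 7318.6 CPM, a ratio of 0.758. This sum and the class sums include the genes below 1 CPM. By class, the ratio of summed CPM, CYR61 to vector, was 0.518 for lysyl oxidases, 0.671 for other collagens, 0.696 for fibrillar collagens, 0.72 for basement membrane genes and 0.917 for glycoproteins and proteoglycans. All 5 sums were lower in CYR61. The narrowest gap between groups was in glycoproteins and proteoglycans, with vector 2 at 2364.7 CPM and CYR61 2 at 2328.7 CPM.

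**Figure D2:**
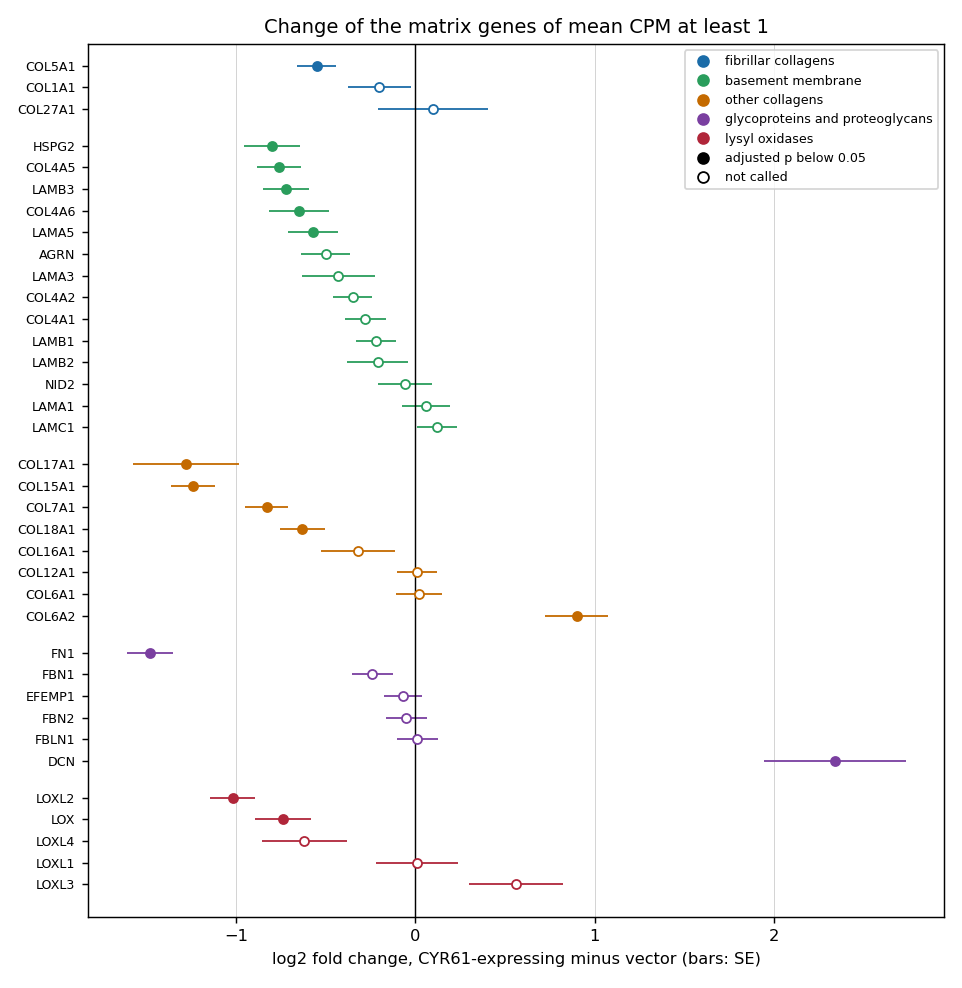
Log2 fold change, CYR61 minus vector, of the 36 matrix genes of mean CPM at least 1, ordered within class, with bars of 1 SE from the edgeR fit and filled points for adjusted p below 0.05. Most points lie left of 0, from FN1 at -1.48 to DCN at 2.34, and only COL6A2 and DCN are filled on the right.

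Fibrillar collagens were represented by 3 measurable genes, of which COL5A1 fell and COL1A1 and COL27A1 did not pass. COL5A1 encodes a chain of type V collagen, which starts and limits the diameter of collagen fibrils. It lies at chr9:134641774-134844843 on the plus strand (GRCh38, GENCODE 29, as are all gene positions given here). It measured 483.7 and 472.9 CPM in vector 1 and 2 and 312.6 and 341.4 CPM in CYR61 1 and 2. Both CYR61 libraries lay below both vector libraries, at a log2 fold change of -0.55 with an SE of 0.109 (edgeR adjusted p = 0.0163). COL5A1 alone made up most of the class sum of 499.9 to 517.3 CPM in the vector libraries. Its adjusted p was 0.0661 without vector 1, 0.0568 without vector 2 and 0.108 without CYR61 1, and the call held without CYR61 2 (0.0138).

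COL1A1, the main chain of type I collagen, measured 31 and 22.9 CPM in the vector libraries and 23.1 and 23.9 CPM in the CYR61 libraries. The groups overlapped, because vector 2 lay below both CYR61 libraries (log2 fold change -0.20, SE 0.174, edgeR adjusted p = 0.545). COL27A1, a fibrillar collagen of cartilage, measured 2.28 and 3.4 CPM against 2.56 and 3.63 CPM, also overlapping (0.10, SE 0.307, edgeR adjusted p = 0.885). COL1A2 had 0, 1, 0 and 0 counts in vector 1, vector 2, CYR61 1 and CYR61 2. COL3A1 had 3, 2, 0 and 1 counts, and COL5A2 4, 11, 8 and 9.

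Of the 14 basement membrane genes, 5 fell, 0 rose and 9 did not pass, with log2 fold changes from -0.80 to 0.12. Beside them, 4.73% of all tested genes of at least 1 CPM were called lower and 1.9% higher. Of those 12031 tested genes, 6040 had a fold change below 0. Among the 14 basement membrane genes the fold change was below 0 in 12, and fewer of them were called lower without vector 1 or without CYR61 1. The 5 called genes were the proteoglycan HSPG2, the type IV collagen chains COL4A5 and COL4A6, and the laminin chains LAMB3 and LAMA5.

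HSPG2 encodes perlecan, a large heparan sulfate proteoglycan of basement membranes, and lies at chr1:21822245-21937297 on the minus strand. It measured 702 and 578.9 CPM in the vector libraries and 314.7 and 422.7 CPM in the CYR61 libraries. It fell from 640.5 ± 87 to 368.7 ± 76.3 CPM (SD, n = 2 per group), a log2 fold change of -0.80 with an SE of 0.154 (edgeR adjusted p = 0.0145). The groups did not overlap. LDLRAD2, on the other strand, shares 11.72% of the exon length of HSPG2 and had a mean of 4.4 counts.

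COL4A5 and COL4A6 encode type IV collagen chains that trimerise with each other in some basement membranes. They lie head to head on the X chromosome, COL4A6 at chrX:108155607-108439497 on the minus strand and COL4A5 at chrX:108439844-108697545 on the plus strand. In RefSeq (GRCh38.p14) their first listed starts are 379 bases apart, so the 250 bases before each start share 121 bases. The window before the COL4A5 start, at chrX:108439588-108439837 on the plus strand, is shown because both genes fell and the stretch lies between them. It holds none of the motifs searched, which are spelled out further on, so no letters are in capitals.
COL4A5: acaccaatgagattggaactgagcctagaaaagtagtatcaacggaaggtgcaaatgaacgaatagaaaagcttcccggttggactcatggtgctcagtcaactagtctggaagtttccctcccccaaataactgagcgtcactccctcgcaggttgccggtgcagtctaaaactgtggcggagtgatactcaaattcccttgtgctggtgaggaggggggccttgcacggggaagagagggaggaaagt

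COL4A5 measured 69.4 and 71.8 CPM in the vector libraries and 41.8 CPM in both CYR61 libraries, a log2 fold change of -0.76 with an SE of 0.123 (edgeR adjusted p = 0.00616). The replicates of each group differed by far less than the groups. COL4A6 measured 17.6 and 16.1 CPM against 11.3 and 10.1 CPM (-0.65, SE 0.168, edgeR adjusted p = 0.0481). Its call was close to the threshold and did not hold with any single library left out, where the adjusted p was 0.06 to 0.255, nor in DESeq2 (0.0564). The ratio of COL4A5 to COL4A6 per length was 4.11 and 4.64 in the vector libraries against 3.86 and 4.29 in the CYR61 libraries, so the groups overlapped in that ratio.

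The other head-to-head pair, COL4A1 and COL4A2 on chromosome 13, encodes the chains of the common type IV collagen, and neither gene passed. COL4A2 measured 598.2 and 599.2 CPM in the vector libraries and 442.9 and 498.6 CPM in the CYR61 libraries (-0.35, SE 0.111, edgeR adjusted p = 0.0947). COL4A1 measured 171.3 and 175.3 CPM against 135.5 and 150.3 CPM (-0.28, edgeR adjusted p = 0.174). Both were lower in each CYR61 library than in each vector library. The ratio of COL4A2 to COL4A1 per length stayed between 3.33 and 3.56 in the 4 libraries, with the CYR61 libraries at the lower end.

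Laminins are trimers of an alpha, a beta and a gamma chain. LAMA5, the most abundant laminin transcript here per length, encodes the alpha chain of laminins found in most adult basement membranes, and lies at chr20:62307955-62367312 on the minus strand. ADRM1, on the other strand, shares 1.71% of the exon length of LAMA5 and had a mean of 6058.5 counts. LAMA5 measured 1326 and 1159 CPM in the vector libraries and 729.5 and 949.8 CPM in the CYR61 libraries. Its log2 fold change was -0.57 with an SE of 0.141 (edgeR adjusted p = 0.0422). All CYR61 values lay below all vector values, but the call was lost without vector 1 (adjusted p = 0.107) or without CYR61 1 (0.265).

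LAMB3 encodes the beta chain of laminin-332, which anchors epithelial cells, and lies at chr1:209614870-209652466 on the minus strand. It measured 202 and 181.7 CPM in the vector libraries and 105.8 and 127.6 CPM in the CYR61 libraries. It fell by 0.72 on the log2 scale (SE 0.129, edgeR adjusted p = 0.00999), and each leave-one-out fit kept the call. LAMA3, the alpha chain of the same trimer, was far scarcer, at 7.27 and 6.66 CPM against 5.44 and 4.89 CPM (-0.43, edgeR adjusted p = 0.246). Per length, LAMB3 was 67.6 to 68.8 times as abundant as LAMA3 in the vector libraries and 48.1 to 64.6 times in the CYR61 libraries. These ratios scale LAMA3 to its longest coding transcript of 10661 bases and would be lower for a shorter form. Which form was expressed was not tested.

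None of the other laminin chains of at least 1 CPM passed. LAMC1, the common gamma chain, measured 171 and 180 CPM in the vector libraries and 184.8 and 196.6 CPM in the CYR61 libraries (0.12, edgeR adjusted p = 0.562), higher in both CYR61 libraries. LAMB1 measured 283.2 and 288.4 CPM against 231.8 and 258.1 CPM (-0.22, edgeR adjusted p = 0.266). LAMB2 (-0.21), NID2 (-0.06) and LAMA1 (0.06) had overlapping groups and did not pass. The ratio of LAMA5 to LAMA1 per length was 22.9 and 21.3 in the vector libraries against 13.4 and 15.2 in the CYR61 libraries, without overlap. The value of NID2, a nidogen that links laminin to type IV collagen, is uncertain, because RTRAF on the other strand shares 29.96% of its exon length.

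AGRN encodes agrin, a heparan sulfate proteoglycan, and was the most abundant member per length. It measured 1226 and 1078 CPM in the vector libraries and 715.9 and 912.4 CPM in the CYR61 libraries. The groups did not overlap, yet the gene lay just outside the threshold (-0.50, SE 0.136, edgeR adjusted p = 0.0567). DESeq2 called it, with an adjusted p of 0.0261.

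The median log2 fold change was -0.20 over 3 fibrillar collagens and -0.39 over 14 basement membrane genes, a difference of 0.19. The median of all tested genes of at least 1 CPM was -0.00. The fibrillar median is the value of COL1A1, and it fell to -0.37 when a mean of 5 CPM was required, which leaves COL5A1 and COL1A1 and brings the difference to 0.01. With 1 library left out the difference ranged from 0.04 to 0.21. With COL12A1 and COL16A1 counted as fibrillar and COL7A1, COL15A1, COL17A1 and COL18A1 as basement membrane collagens, it was 0.34. With 3 measurable fibrillar collagens, no difference between these classes was established, and no test was made of it.

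The other collagens held both directions: 4 of 8 fell, 1 rose and 3 did not pass. The 4 that fell, COL15A1, COL17A1, COL7A1 and COL18A1, encode collagens of the basement membrane zone. COL15A1 and COL18A1 are multiplexins that sit beside the membrane, COL7A1 forms the anchoring fibrils below it, and COL17A1 spans the cell membrane in hemidesmosomes.

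COL15A1, at chr9:98943179-99070792 on the plus strand, measured 97.5 and 90.8 CPM in the vector libraries and 39.3 and 40.2 CPM in the CYR61 libraries. It fell by 1.24 on the log2 scale (SE 0.123, edgeR adjusted p = 0.000436), and the replicates of each group lay close together. COL18A1, at chr21:45405137-45513720 on the plus strand, measured 84.6 and 75.3 CPM against 51.1 and 52 CPM (-0.63, SE 0.125, edgeR adjusted p = 0.0162). Its value is uncertain, because SLC19A1 on the other strand shares 16.43% of its exon length at a mean of 1676 counts, and the call was lost without vector 1 (adjusted p = 0.134).

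COL7A1, at chr3:48564073-48595267 on the minus strand, was the most abundant of these collagens. It measured 585.2 and 552.7 CPM in the vector libraries and 292.6 and 348.3 CPM in the CYR61 libraries, a log2 fold change of -0.83 with an SE of 0.12 (edgeR adjusted p = 0.0034). No alternative test or left-out library ended that call. The sequence before its RefSeq start is shown as an example among the genes that fell (GRCh38.p14, chr3:48595330-48595579, minus strand). The capitals mark a match to CAGACA, read here on the other strand, the core letters bound by SMAD factors of TGF-beta signalling.
COL7A1: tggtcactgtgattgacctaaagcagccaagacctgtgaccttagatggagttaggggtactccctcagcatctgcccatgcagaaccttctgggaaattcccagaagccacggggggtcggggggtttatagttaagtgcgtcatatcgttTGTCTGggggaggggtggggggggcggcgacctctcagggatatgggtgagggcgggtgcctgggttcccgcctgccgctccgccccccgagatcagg

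COL17A1, at chr10:104031286-104085957 on the minus strand, measured 3.98 and 3.4 CPM in the vector libraries and 1.67 and 1.32 CPM in the CYR61 libraries. It fell by 1.28 on the log2 scale (SE 0.294, edgeR adjusted p = 0.03). At this low level the call was not made by DESeq2 (adjusted p = 0.0644) and was lost without vector 1 (0.121).

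COL6A2 was the 1 collagen called higher. It encodes the alpha 2 chain of type VI collagen, a beaded microfibril that surrounds cells, and lies at chr21:46098097-46132849 on the plus strand. It measured 9.87 and 8.47 CPM in the vector libraries and 16 and 18.2 CPM in the CYR61 libraries, a log2 fold change of 0.90 with an SE of 0.177 (edgeR adjusted p = 0.0154). All CYR61 values lay above all vector values, and the call was lost without vector 2 (adjusted p = 0.0674). COL6A1, the partner chain in the same trimer, ends 93046 bases before it on the same strand. COL6A1 measured 95.6 and 84.4 CPM against 84.6 and 98.4 CPM, with the groups overlapping (0.02, SE 0.13, edgeR adjusted p = 0.941). Per length, COL6A2 was 0.126 and 0.123 of COL6A1 in the vector libraries against 0.232 and 0.227 in the CYR61 libraries. The partner chain COL6A3 had 4, 6, 3 and 4 counts in vector 1, vector 2, CYR61 1 and CYR61 2.

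The sequence before the RefSeq start of COL6A2 is shown because this gene rose while the other called collagens fell (GRCh38.p14, chr21:46097862-46098096, plus strand). None of the motifs searched lies in it.
COL6A2: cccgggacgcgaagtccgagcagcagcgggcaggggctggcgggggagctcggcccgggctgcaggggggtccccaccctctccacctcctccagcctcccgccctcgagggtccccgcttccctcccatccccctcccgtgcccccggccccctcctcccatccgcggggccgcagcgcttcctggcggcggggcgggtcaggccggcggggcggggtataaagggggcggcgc

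COL12A1, a fibril-associated collagen, measured 127.9 and 134.8 CPM in the vector libraries and 132.2 and 132.6 CPM in the CYR61 libraries (0.01, edgeR adjusted p = 0.966). COL16A1, also fibril-associated, did not pass (-0.32, edgeR adjusted p = 0.393).

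Among glycoproteins and proteoglycans, FN1 fell, DCN rose and the other 4 of at least 1 CPM did not pass. FN1 encodes fibronectin, a cell-binding glycoprotein whose fibrils guide the assembly of other matrix, and lies at chr2:215360440-215436172 on the minus strand. It measured 82.3 and 76.5 CPM in the vector libraries and 28.7 and 28.4 CPM in the CYR61 libraries. It had the largest decrease of the 36 genes in the edgeR fit, at a log2 fold change of -1.48 with an SE of 0.128 (edgeR adjusted p = 0.000191). The 80 bases before the annotated first exon are shown for that reason (GRCh38.p14, chr2:215436173-215436252, minus strand). The capitals mark TGACGTCA, the palindromic cyclic AMP response element, which was searched after this window had been read.
FN1: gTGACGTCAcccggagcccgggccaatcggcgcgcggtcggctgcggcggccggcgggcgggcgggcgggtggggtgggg

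DCN encodes decorin, a small proteoglycan that binds collagen fibrils and TGF-beta, and lies at chr12:91140484-91183123 on the minus strand. It measured 0.637 and 0.544 CPM in the vector libraries and 3.67 and 2.26 CPM in the CYR61 libraries, from 12, 12, 79 and 36 counts. Every CYR61 value lay above every vector value, at a log2 fold change of 2.34 with an SE of 0.395 (edgeR adjusted p = 0.00746). The gene passed the 1 CPM minimum only through the group where it is high. LUM, the related proteoglycan lumican, lies 28652 bases away on the same strand, and had 0, 0, 13 and 2 counts. The CYR61 mean of LUM was 2.29 times a vector floor of 3 counts per library (0.159 CPM), which covers counting error of the vector side only. That ratio rests on CYR61 1 (0.605 CPM), because CYR61 2 (0.125 CPM) lay below the floor. LUM had too few counts for a test. DCN, LUM and COL1A1 are also among 12 markers of stellate cells and fibroblasts, which summed to 51.2 and 41.8 CPM in the vector libraries and 41.4 and 43.0 CPM in the CYR61 libraries. Without these 3, the other 9 summed to 19.5 and 18.3 CPM in the vector libraries and 14.1 and 16.7 CPM in the CYR61 libraries. None of the 9 was called, and PDGFRA, LRAT and PDPN had 0 counts in the 4 libraries.

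The fibrillins, which build elastic microfibrils, and the fibulins FBLN1 and EFEMP1 were abundant, and none of them passed. FBN2 measured 1006 and 965.6 CPM in the vector libraries and 890.7 and 1018 CPM in the CYR61 libraries (-0.05, edgeR adjusted p = 0.849). FBN1 measured 715.9 and 718.9 CPM against 564.3 and 652 CPM (-0.24, edgeR adjusted p = 0.243). EFEMP1 (-0.07) and FBLN1 (0.01) also did not pass. SPARC, POSTN and VCAN, matrix genes of activated fibroblasts, had at most 2 counts in any library.

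**Figure D3:**
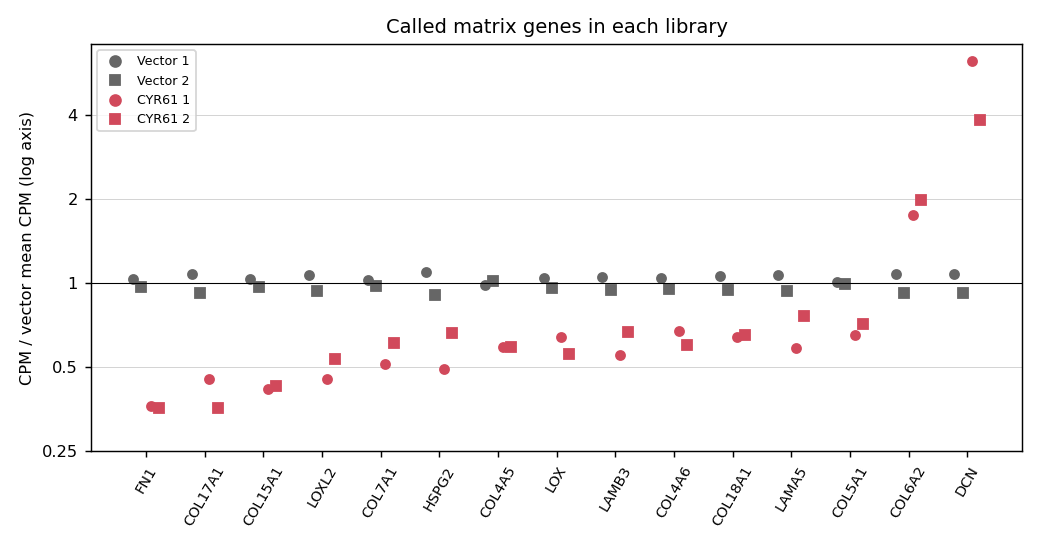
CPM of each of the 15 called matrix genes in each library, divided by the mean of the vector libraries (log axis), ordered by fold change. In all 15 the red CYR61 symbols lie on one side of the grey vector symbols, below them in 13 genes and above them in COL6A2 and DCN.

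Of the 5 lysyl oxidases, LOX and LOXL2 fell and LOXL1, LOXL3 and LOXL4 did not pass. LOX, the founding member of the family, lies at chr5:122063195-122078360 on the minus strand. It measured 31.2 and 28.6 CPM against 19.1 and 16.6 CPM (-0.74, SE 0.156, edgeR adjusted p = 0.0218). Its groups did not overlap, and the call was lost without vector 1 (adjusted p = 0.108). SRFBP1 on the other strand shares 2.49% of its exon length.

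The sequence before the annotated first exon of LOX is shown because it held matches to more than 1 motif (GRCh38.p14, chr5:122078361-122078509, minus strand). The capitals mark ACGTG on either strand, the core of a hypoxia response element, and CAGACA on the other strand. The first run in capitals is an ACGTG and a CAGACA match that overlap.
LOX: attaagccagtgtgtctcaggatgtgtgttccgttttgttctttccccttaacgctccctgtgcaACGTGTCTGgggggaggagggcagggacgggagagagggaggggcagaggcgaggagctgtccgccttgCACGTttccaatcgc

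LOXL2, which crosslinks collagens including type IV, lies at chr8:23297189-23425328 on the minus strand. It measured 344.9 and 301.3 CPM in the vector libraries and 146.3 and 172.7 CPM in the CYR61 libraries. It fell by 1.02 on the log2 scale (SE 0.127, edgeR adjusted p = 0.0016), and it was the most abundant of the 5 per length at 68 CPM per kb.

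LOXL4 measured 6.21 and 4.94 CPM in the vector libraries and 3.4 and 3.88 CPM in the CYR61 libraries (-0.62, edgeR adjusted p = 0.151). LOXL1, which acts on elastic fibres, measured 4.14 and 4.12 CPM against 4.05 and 4.26 CPM (0.01, edgeR adjusted p = 0.991). LOXL3 stood at a log2 fold change of 0.56 (edgeR adjusted p = 0.239), and its value is uncertain, since HTRA2 on the other strand shares 14.33% of its exon length.

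The motifs named above were searched on both strands in the 250 bases before the first listed RefSeq start, which was found for 29 of the 36 genes, 12 of them called lower. ACGTG was present in 17.2% of the 29 and in 18.5% of 35116 promoters of the same length. GCGTG, the other hypoxia response core, was present in 13.8% and 32.2%. CAGACA was present in 13.8% and 13.6%, and among the genes that fell in HSPG2, COL7A1 and LOX. GGAATG, the core letters bound by the TEAD partners of YAP, was present in 10.3% and 11.9%, and in none of the genes that fell. TGACGTCA was present in FN1 alone among the 29 and in 1.6% of all promoters. Further RefSeq starts of some genes were not counted. Among genes that fell, the sequence before such starts held CAGACA in COL4A6 and GCGTG in LOX and COL18A1. These are matches of letters in short windows and are given as a description.

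Of 28 listed genes that make and export collagen, 24 had at least 1 CPM, and 2 of these fell, 0 rose and 22 did not pass, beside 4.73% lower and 1.9% higher over all tested genes of at least 1 CPM. Their median log2 fold change was -0.09. PCOLCE, which speeds removal of the procollagen tail, measured 17.7 and 16.4 CPM in the vector libraries and 9.02 and 10.7 CPM in the CYR61 libraries (-0.80, edgeR adjusted p = 0.0245). P4HA3, a prolyl hydroxylase subunit, measured 12.4 and 9.88 CPM against 5.91 and 6.83 CPM (-0.81, edgeR adjusted p = 0.0422). Both calls were lost without vector 1 (adjusted p = 0.0997 and 0.261) and without CYR61 1 (0.0898 and 0.119). The genes of the list with the highest mean CPM, not scaled to length, were P4HB (-0.10), the other prolyl hydroxylase subunit, COLGALT1 (0.03), which adds galactose to collagen, and CRTAP (0.07), a partner of prolyl 3-hydroxylase, and none of these passed.

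Of 24 listed matrix receptors, 19 had at least 1 CPM, and 4 fell, 0 rose and 15 did not pass, at a median of -0.24 on the log2 scale. Over all tested genes of at least 1 CPM, 4.73% were lower, 1.9% were higher and the median was -0.00. The 4 were integrin subunits. ITGA2, of the collagen receptor, measured 57.8 and 73.1 CPM in the vector libraries and 28.9 and 24.8 CPM in the CYR61 libraries (-1.28, SE 0.157, edgeR adjusted p = 0.0016). ITGA5, of the fibronectin receptor, measured 364.1 and 340.2 CPM against 174.3 and 181.2 CPM (-0.99, SE 0.11, edgeR adjusted p = 0.000877). ITGB4, of the laminin receptor in hemidesmosomes, measured 450 and 402.4 CPM against 175.3 and 224.2 CPM (-1.09, SE 0.138, edgeR adjusted p = 0.0016). In all 3 the groups lay far apart, and no alternative test or left-out library ended the call.

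ITGA3, of another laminin receptor, measured 374.4 and 345.9 CPM in the vector libraries and 236.6 and 275 CPM in the CYR61 libraries (-0.49, SE 0.119, edgeR adjusted p = 0.0367). That call was lost without vector 1 (adjusted p = 0.199), vector 2 (0.0714) or CYR61 1 (0.244). ITGB1, the beta subunit shared by ITGA2, ITGA3 and ITGA5, did not pass (-0.18, edgeR adjusted p = 0.423). CD44, the hyaluronan receptor (-0.29, edgeR adjusted p = 0.127), and DAG1, dystroglycan (0.35, edgeR adjusted p = 0.0947), did not pass either.

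The spread between replicates moved with the GC content of the transcripts. Across 10364 genes at 5 CPM or more, GC content had a Spearman's rho of -0.75 with vector 2 minus vector 1, -0.80 with CYR61 1 minus CYR61 2 and -0.18 with the change between groups. Genes are not independent replicates, so these are descriptions. Many matrix genes are rich in GC: the transcripts of AGRN, LAMA5, COL18A1 and COL6A2 lie between 65.3% and 66.9%. With the GC trend of each library removed, 17 of the 36 genes were called lower and 2 higher, beside 14.4% and 16.5% of all tested genes of at least 1 CPM. The added genes were AGRN (adjusted p = 0.00105), COL4A1 (0.0146), COL4A2 (0.00597) and LAMB1 (0.0379). All 15 calls kept their direction, for example COL5A1 at -0.45, HSPG2 at -0.69, FN1 at -1.46 and COL6A2 at 1.02. The part of GC content in the remaining differences was not tested.

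**Figure D4:**
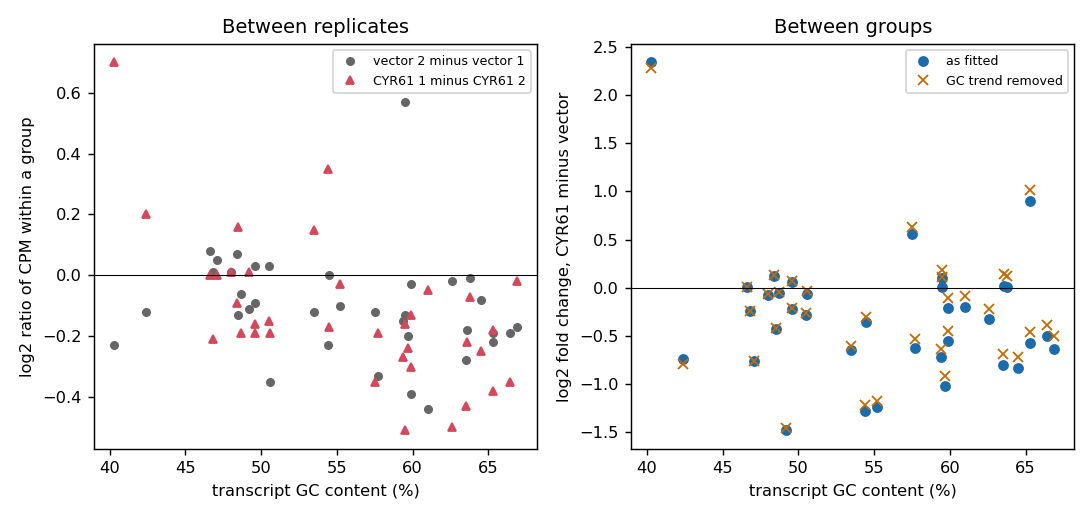
Transcript GC content of the 36 matrix genes against the log2 ratio between replicates (left) and the log2 fold change between groups as fitted and with the GC trend removed (right). On the left both replicate differences lie mostly below 0 above 60% GC; on the right the crosses lie close to the points, with DCN highest and FN1 lowest.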

How the data were processed

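RNA sequencing of 4 HLE libraries was used, and the authors deposited estimated counts per Ensembl gene for each library. Between 11.2% and 12.0% of the values were not whole numbers, so they were rounded before testing. The submitters' processing notes name hg38 as the build, and TopHat2 2.1.1 beside Cufflinks 2.2.1 and Cuffdiff 1.3.0. For the counting program, annotation release and strandedness, nothing was given in the sources used here. Reads from genes that overlap on opposite strands therefore cannot be told apart.

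Genes passing edgeR's filterByExpr (12698) were fitted with edgeR 4.0.16 (R 4.3.3, TMM scaling, quasi-likelihood test on group alone, Benjamini-Hochberg adjustment over all tested genes). A called gene had an adjusted p below 0.05. CPM used TMM-scaled library sizes, and each SE was taken as the size of the log2 fold change over the square root of F. Levels between genes were compared per kilobase of the longest protein-coding transcript in GENCODE 29 (GRCh38, the same assembly as hg38). This release gave the positions and held 20212 of the 20286 identifiers. A table of gene names held 20228. Promoter sequences are from RefSeq (GRCh38.p14).

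The members, the lists of synthesis and receptor genes and the marker lists were chosen with earlier results of these data known. Values in each library are given for every called member and, in each class, for the 2 uncalled members of highest mean CPM, and in the synthesis and receptor lists for called genes, with up to 3 uncalled ones of highest mean CPM named. Values of COL4A1, LAMA3, LAMB1, LAMC1, LUM, COL6A3 and other members beyond this rule were added as subunit partners or neighbours after their values were seen. The scripts were tested on simulated data. Alternatives were DESeq2 1.42.0, limma-voom (limma 3.58.1), other scalings and filters, a replicate block, removal of the trend on GC content (natural spline, 5 degrees of freedom) and each library left out in turn.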

Additional observations from a re-analysis of the deposited data

How the results depend on the processing

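None of the 15 called matrix genes changed sign in the 238 fits of them under the alternatives listed at the outset, and 8 kept their call in all of these: COL4A5, LAMB3, HSPG2, COL7A1, COL15A1, FN1, DCN (without a fit under the 5 CPM filter) and LOXL2. With a library left out, a lone sample is assumed to vary like the other group. The number of genes called was then 495 to 1325, of matrix genes called lower 7 to 13 and higher 1 to 2, of basement membrane genes lower 3 to 5 and of synthesis genes lower 0 to 2. The lowest count of all genes was without vector 1 and the highest without CYR61 2. The fibrillar median was then -0.39 to -0.15 and its difference from the basement membrane median 0.04 to 0.21. Without a filter 1677 genes were called, with 4 synthesis genes and 7 receptors lower and 1 receptor higher. The 5 CPM filter left 1 matrix gene called higher, a fibrillar median of -0.39 and a difference of 0.01, and the same minimum on the mean gave -0.37 and 0.01. RLE size factors left 3 basement membrane genes lower, and DESeq2, limma-voom and library size alone each left 1 synthesis gene lower. DESeq2 called 945 genes, 62.3% of them lower against 71.4% in edgeR.

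Removing the GC trend gave 3772 called genes, 46.8% of them lower, with 9 basement membrane genes lower, 7 synthesis genes lower and 3 higher, 10 receptors lower and 4 higher, a fibrillar median of -0.08 and a difference of 0.26. With the replicate block added to it these were 3004, 8, 7, 2, 9, 3, -0.08 and 0.26. Without a filter 61.4% of the calls were lower. The broader classes gave a basement membrane median of -0.53 and a difference of 0.34.

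Whether the replicate numbers pair the samples cannot be told from these data. Deviations of same-numbered samples from their group means correlated at -0.719, a single value, since 2 samples per group deviate as mirror images. The replicate differences also moved with GC content, so this value does not settle how the cultures were handled. The replicate block left 391 called genes, 86.4% of them lower, with 8 matrix genes, 3 basement membrane genes and 0 synthesis genes lower. The crossed pairing, chosen after seeing the data, called 5624 genes, with 22 matrix genes, 11 basement membrane genes and 10 synthesis genes lower and 3 higher, and 11 receptors lower and 3 higher.

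Fold changes near 0 changed sign in uncalled genes. With a library left out, the ranges were -0.39 to 0.04 for COL1A1, -0.16 to 0.43 for COL27A1, -0.04 to 0.16 for LAMA1, -0.21 to 0.13 for NID2, -0.09 to 0.14 for COL6A1, -0.03 to 0.06 for COL12A1, -0.15 to 0.06 for FBN2, -0.07 to 0.10 for FBLN1, -0.03 to 0.06 for LOXL1, -0.08 to 0.16 for COLGALT1 and -0.08 to 0.17 for ITGA6. COL12A1 was at -0.00 with library size alone and with the 5 CPM filter, FBLN1 at -0.00 with that filter, and LOXL1 at -0.01 with library size alone. The causes were not tested, except that fewer genes or samples enter some fits by construction. Genes of a few CPM, such as DCN, COL17A1 and COL27A1, are limited by depth.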

Other observations

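Values of some genes of the hemidesmosome and its anchoring fibrils are given side by side. They were chosen after their values were seen, so nothing is read from their number. COL7A1 (-0.83), COL17A1 (-1.28), LAMB3 (-0.72) and ITGB4 (-1.09) fell, and LAMA3, the partner chain of LAMB3, did not pass (-0.43, edgeR adjusted p = 0.246). ITGA6, the integrin subunit that pairs with ITGB4, measured 106.4 and 126.3 CPM in the vector libraries and 128.9 and 109.3 CPM in the CYR61 libraries, with the groups overlapping (0.03, edgeR adjusted p = 0.914). The cytoskeletal linker PLEC (-0.29, edgeR adjusted p = 0.241), the linker DST (-0.30, edgeR adjusted p = 0.199) and the tetraspanin CD151 (-0.22, edgeR adjusted p = 0.427) did not pass.

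KERA and EPYC, the small proteoglycan genes beside LUM and DCN on chromosome 12, had 0 counts in the 4 libraries. BGN, the closest relative of DCN and located on another chromosome, had 11, 3, 7 and 4 counts in vector 1, vector 2, CYR61 1 and CYR61 2. TNC, encoding tenascin-C, had 17, 18, 8 and 7 counts in the same order. COL13A1 had 5, 10, 5 and 0 counts.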
